A study of Homo sapiens with 6 samples.

Results

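The tumour suppressor p53 is a transcription factor that binds DNA when cells are stressed and switches on genes for growth arrest, DNA repair, cell death, metabolism and its own shutdown. A set of 33 genes named in reviews as direct p53 targets, without members of the BCL2 family, was followed here in PC3 cells, an established androgen-independent human prostate cancer line that is known to carry no functional p53. Of the 33 genes, 31 were paired by the platform annotation with a probe set of their own, 1 probe set each, among 18376 genes measured in all, and BTG2 and FDXR are not analysed here.

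Total RNA was measured on 6 whole-transcript Affymetrix arrays. In 3 samples PC3 cells ectopically expressed miR-34c, and in 3 samples they ectopically expressed a scramble mimic, the control. The arrays are called M1, M2 and M3 for replicates 1 to 3 with miR-34c and S1, S2 and S3 for replicates 1 to 3 with the scramble mimic, and their values are given in that order. Both groups share the line and carry no other label. The design text speaks of miR-205, whereas the sample titles, the treatment labels and the series title speak of miR-34c, and the groups follow these. The labels do not give the dose, the time after transfection or whether replicates are separate cultures, so p-values measure the spread between these arrays, which may be technical, and the number of arrays limits the precision.

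The microRNAs of the miR-34 family are themselves transcribed under the control of p53, and they lower messenger RNAs that carry matches to their seed. In cells with p53, a rise of its targets after miR-34 is usually discussed through p53, whose deacetylase SIRT1 is a known miR-34 target. Many p53 targets are also driven by other factors, among them stress and growth-factor responses, and can therefore be active in cells that have no p53. The question these arrays answer is which of the targets differed with miR-34c in a line without p53.

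The deposited values are on a log2 scale and lie around 0, as if a reference had been subtracted for each probe set. The reference was not the mean of these 6 arrays, as 29.8% of probe sets had all 6 arrays on 1 side of 0. A value of 0.5 is read as 0.5 log2 units above an unstated reference for that gene. Levels of different genes cannot be compared, and whether a gene is expressed at all cannot be read from these values. For the same reason the labelled cell type could not be checked against its markers. The correlation across probe sets lay between 0.77 and 0.88 for arrays of the same group and between 0.56 and 0.70 for arrays of different groups. The medians of 5 arrays lay between -0.03 and -0.000421 and that of S2 at 0.06. In limma 2905 genes differed at a Benjamini-Hochberg adjusted p under 0.05, or 15.8% of those tested. Leaving out M2 gave 1708 and leaving out M3 gave 1641. Of 13 measured markers of leukocytes, fibroblasts, endothelial and prostate luminal cells, PDGFRA (log2 change -0.48) and PECAM1 (-0.74) passed, both lower with miR-34c, and their part in the results was not tested. In bulk RNA fewer cells of a type and less RNA per cell cannot be told apart.

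Of the 31 p53 targets, 9 rose with miR-34c, 3 fell and 19 did not pass (limma, adjusted p under 0.05 over all genes). The genes that rose were FUCA1, GADD45B, PLK3, PHLDA3, PLK2, BTG1, GADD45A, SFN and XPC, and those that fell were ZMAT3, CCNG1 and TP53INP1. All changes were below 2-fold. FUCA1, GADD45B and PLK3 were at least 1.5-fold higher, and none was at least 1.5-fold lower. Among all genes 7.75% rose, 8.05% fell, 2.35% rose at least 1.5-fold and 1.46% fell at least 1.5-fold. Rises thus made up 29.0% of the p53 targets and falls 9.68%, the latter close to the share among all genes. The targets were chosen with earlier results of these data known, which limits what these shares can show. The median log2 change of the 31 targets was 0.10, with a range from -0.53 (ZMAT3) to 0.77 (FUCA1), against a median of -0.03 over all genes. The all-gene shares include genes that PC3 cells may not express, and their part in the comparison was not tested. With protein-coding genes alone in the fit, 17.0% of 16865 genes were called, 8.43% higher and 8.54% lower, and 9 of the targets rose and 4 fell.

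**Figure D1:**
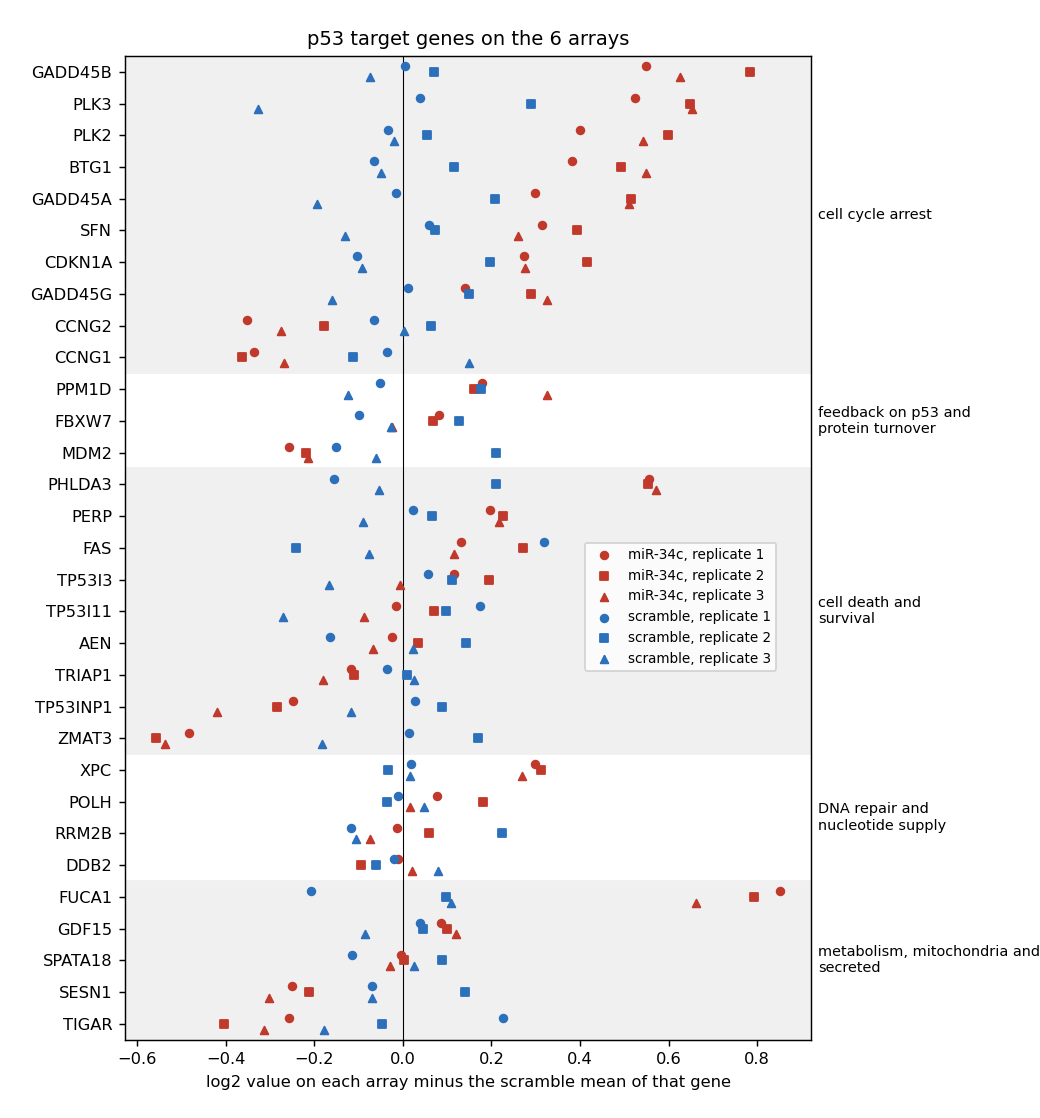
Each point is 1 array: the log2 value of a p53 target gene minus the mean of the 3 scramble arrays for that gene, with miR-34c arrays in red and scramble arrays in blue and the replicate shown by the marker. The red points lie right of all blue points for the genes that rose, such as GADD45B, PLK2 and FUCA1, and left of them for ZMAT3, CCNG1 and TP53INP1.

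The miR-34c and scramble arrays did not overlap for 20 of the 31 targets, the 12 called ones and 8 others, against 34.4% of all genes. In 22 of the 31 targets S2 was the highest scramble array, as it was in 57.7% of all genes. These 22 include 7 of the 9 genes that rose, where the highest scramble array is by construction nearest to the miR-34c arrays. The spread of the 3 scramble arrays was wider than that of the 3 miR-34c arrays in 26 of the 31 targets and in 64.0% of all genes. The count of 9 rises was 5 without M2 and 5 without M3, and 11 without S2. Over all genes the count of 1425 rises was 844 without M2, 872 without M3 and 1572 without S2. Of the 3 falls 1 was left when M2, M3 or S1 was taken out. Over all genes the count of 1480 falls was 864 without M2, 769 without M3 and 997 without S1.

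The letters in front of the gene starts are shown because direct targets are defined by p53 binding to DNA. RefSeq promoter sequences of GRCh38.p14 matched 27 of the 31 targets. The p53 decamer, the 10-base half-site of the p53 consensus, was searched on both strands in the 250 bases upstream of each listed start. It was found for PLK2, SESN1, FAS and AEN, in 4 of 42 promoters of these targets (9.52%) and in 5.57% of all 35116 promoters listed. The matches are given below in capitals with 10 bases on each side, 5′ to 3′ on the strand of the gene.
PLK2: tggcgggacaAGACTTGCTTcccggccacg
SESN1: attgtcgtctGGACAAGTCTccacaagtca
FAS: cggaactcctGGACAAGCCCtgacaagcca
AEN: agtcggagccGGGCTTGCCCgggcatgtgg
These windows lie at chr5:58460199-58460228 on the minus strand for PLK2, chr6:109009018-109009047 on the minus strand for SESN1, chr10:88991299-88991328 on the plus strand for FAS and chr15:88621296-88621325 on the plus strand for AEN. The PLK2 window lies outside the annotated gene, and the other windows lie within the span of their gene, in front of a listed start. Of these 4 genes PLK2 rose, and SESN1, FAS and AEN did not pass. A match is a description of the letters and not a binding site, and many p53 elements lie farther from the start.

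Genes of cell cycle arrest held most of the rises. Of the 10 measured members of this group 6 rose (60%, against 7.75% of all genes) and 1 fell (10%, against 8.05%). The median log2 change was 0.38. This grouping of the targets was also made with earlier results of these data known. GADD45B, GADD45A and GADD45G encode small stress-induced proteins that bind kinases of MAP kinase pathways and cell cycle factors. PLK2 and PLK3 are polo-like kinases that respond to stress, BTG1 restrains proliferation as a partner of the mRNA deadenylase complex, and SFN encodes stratifin, which holds mitotic kinase complexes in the cytoplasm.

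GADD45B had centred log2 values of 0.77, 1.00 and 0.85 on the miR-34c arrays and 0.22, 0.29 and 0.15 on the scramble arrays. Every miR-34c array lay above every scramble array, with a gap of 0.48 between the groups. The gene rose 1.57-fold (log2 change 0.65 ± 0.09, SE, n = 3 per group, limma adjusted p = 0.00128). GADD45A had values of -0.07, 0.15 and 0.14 with miR-34c and -0.38, -0.16 and -0.56 with the scramble mimic. Here the lowest miR-34c array and the highest scramble array were 0.09 apart, and the gene rose 1.36-fold (log2 change 0.44 ± 0.11, SE, adjusted p = 0.0277). GADD45A did not pass without M2 (adjusted p = 0.102), M3 (0.0951), S1 (0.0785) or S3 (0.0786). GADD45G had values of 0.07, 0.21 and 0.25 against -0.06, 0.07 and -0.24, so that the groups met, and its log2 change of 0.25 ± 0.10 (SE) did not pass (adjusted p = 0.121) but passed with array weights (0.0483).

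Within each array the 3 GADD45 genes were also compared with each other, among 6 pairs of related genes. The log2 change of GADD45B exceeded that of GADD45G by 0.40 ± 0.07 (SE, 4 residual degrees of freedom, 95% interval 0.19 to 0.61), and that of GADD45A exceeded that of GADD45G by 0.19 ± 0.04 (0.09 to 0.29). The change of GADD45A minus that of GADD45B was -0.21 ± 0.09 (-0.46 to 0.04). The exact two-sided permutation test gave p = 0.1 for each of the first 2 differences, the smallest p that 3 arrays against 3 allow, and 0.2 for the last, or 0.2, 0.2 and 0.3 adjusted over the 6 pairs.

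PLK2 had values of 0.43, 0.63 and 0.57 on the miR-34c arrays and -0.0045, 0.08 and 0.0085 on the scramble arrays, a gap of 0.34 between the groups. The gene rose 1.43-fold (log2 change 0.51 ± 0.08, SE, adjusted p = 0.00322, limma). PLK3 had values of 0.05, 0.18 and 0.18 with miR-34c and -0.43, -0.18 and -0.80 with the scramble mimic. The scramble arrays of PLK3 were spread far more widely than the miR-34c arrays, and its rise of 1.52-fold had the larger error (log2 change 0.61 ± 0.14, SE, adjusted p = 0.0168). PLK3 did not pass without M2 (adjusted p = 0.0621) or M3 (0.0534). The changes of PLK2 and PLK3 differed by -0.10 ± 0.16 (SE, 95% interval -0.55 to 0.36, exact permutation p = 0.8, adjusted p = 0.8; 0.06 without S3 and -0.21 without S2), an interval that leaves room for a difference in either direction.

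BTG1 had values of -0.14, -0.03 and 0.03 with miR-34c and -0.59, -0.41 and -0.57 with the scramble mimic, and it rose 1.39-fold (log2 change 0.47 ± 0.09, SE, limma adjusted p = 0.00587). All 3 miR-34c arrays lay at least 0.27 above the scramble arrays. SFN had values of 0.20, 0.28 and 0.15 against -0.05, -0.04 and -0.24 and rose 1.25-fold (log2 change 0.32 ± 0.09, SE, adjusted p = 0.0327). The groups of SFN were 0.19 apart, but the gene passed with all arrays or without S2 and not without M1 (adjusted p = 0.0671), M2 (0.127), M3 (0.0713), S1 (0.0589) or S3 (0.0792).

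The stretches in front of FUCA1, GADD45B, BTG1 and PLK2 are shown because these 4 rose under every setting tried and their listed promoters lie outside the gene. They cover the 120 bases upstream of the start, 5′ to 3′ on the strand of the gene, and capitals mark CCAAT and TATAAA on either strand (CCAAT on the other strand reads ATTGG).
FUCA1: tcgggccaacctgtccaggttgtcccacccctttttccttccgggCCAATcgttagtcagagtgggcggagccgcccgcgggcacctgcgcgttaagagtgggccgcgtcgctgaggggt
GADD45B: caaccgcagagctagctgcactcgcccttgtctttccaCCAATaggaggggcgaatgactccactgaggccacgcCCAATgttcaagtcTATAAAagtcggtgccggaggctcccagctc
BTG1: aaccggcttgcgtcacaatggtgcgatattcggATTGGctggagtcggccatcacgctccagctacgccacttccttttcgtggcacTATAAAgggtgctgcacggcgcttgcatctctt
PLK2: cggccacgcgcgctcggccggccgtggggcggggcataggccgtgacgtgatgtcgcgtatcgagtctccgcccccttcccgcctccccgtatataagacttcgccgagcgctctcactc
In GRCh38.p14 they lie at chr1:23868291-23868410 (minus strand), chr19:2476007-2476126 (plus strand), chr12:92145847-92145966 (minus strand) and chr5:58460087-58460206 (minus strand). Within these 120 bases CCAAT occurred 1 time for FUCA1, 2 times for GADD45B and 1 time for BTG1, and TATAAA 1 time each for GADD45B and BTG1. The stretch of PLK2 held neither, nor did those of PLK3 and ZMAT3, which were also searched and are not shown. Only these exact letters were counted, and near forms such as the tatataag of the PLK2 stretch were not. In the 250 bases upstream, CCAAT was present in 45.2% of the promoters of the p53 targets and 32.0% of all promoters, and TATAAA in 9.52% and 10.7%. TGACG, the core of the element bound by CREB and ATF factors, was present in 21.4% and 21.2%, and TGANTCA, a looser string than the AP-1 consensus that it takes in, in 11.9% and 6.57%, all searched on both strands. The letters TGANTCA were found in front of SFN, PERP, FAS and MDM2, of which SFN rose.

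CDKN1A, which encodes the cyclin-dependent kinase inhibitor p21 and is the best known p53 target for arrest, had values of 0.30, 0.44 and 0.30 with miR-34c and -0.08, 0.22 and -0.07 with the scramble mimic. The groups did not overlap, but S2 lay only 0.08 below the nearest miR-34c array. The log2 change of 0.32 ± 0.10 (SE, 95% interval 0.10 to 0.55) had an adjusted p of 0.0585 and did not pass in limma. It passed without S2 (log2 change 0.42, adjusted p = 0.0143), with array weights (0.0171), with the array medians set to 0 (0.0269) and after a further quantile normalization (0.0189).

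The cyclins of the G type, CCNG1 and CCNG2, were the members of the arrest group with lower values. CCNG1, whose product guides a phosphatase to MDM2, had values of -0.08, -0.11 and -0.01 with miR-34c and 0.22, 0.14 and 0.40 with the scramble mimic. It fell to 0.80 of its scramble mean, a log2 change of -0.32 ± 0.09 (SE, limma adjusted p = 0.0366), with the groups 0.15 apart. It did not pass with the array medians set to 0 (adjusted p = 0.0599) or with quantile normalization again (0.0752), nor without M1 (0.0814), M2 (0.127), M3 (0.0809), S1 (0.0755) or S3 (0.085). CCNG2, a cyclin linked to quiescence that is also a target of FOXO factors, had values of -0.41, -0.23 and -0.33 against -0.12, 0.01 and -0.05. Its log2 change of -0.27 ± 0.08 (SE) missed the threshold (adjusted p = 0.0532) and passed with each array centred (0.0441), with quantile normalization again (0.0308), with a variance trend (0.0422) and with protein-coding genes alone (0.0479). The changes of CCNG1 and CCNG2 differed by -0.05 ± 0.12 (SE, 95% interval -0.37 to 0.27, exact permutation p = 0.5, 0.6 adjusted over the pairs), and the sign turned without M2 (0.01) and without S3 (0.02).

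**Figure D2:**
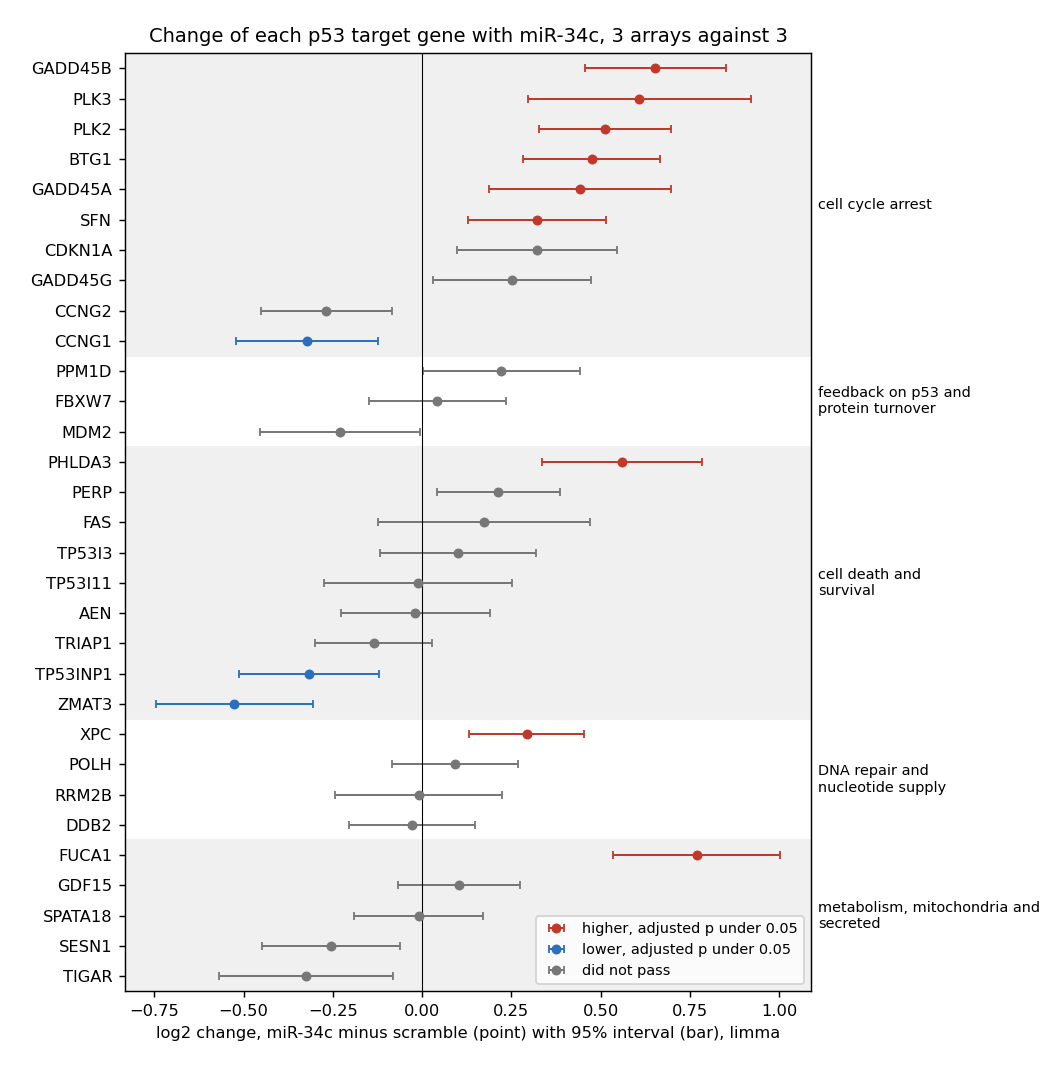
Points give the log2 change of each p53 target gene (miR-34c minus scramble, 3 arrays each) with its 95% interval from limma, in red for genes that rose, blue for genes that fell and grey for genes that did not pass. The arrest genes run from 0.65 (GADD45B) to -0.32 (CCNG1), and the repair genes other than XPC lie near 0.

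None of the 3 genes of feedback on p53 and protein turnover passed in limma. MDM2 and PPM1D had an unadjusted limma p under 0.05, as did 5390 of all 18376 genes. MDM2, the ubiquitin ligase that marks p53 for degradation and is itself induced by p53, had values of -0.53, -0.49 and -0.49 with miR-34c and -0.42, -0.06 and -0.33 with the scramble mimic. The miR-34c arrays were tightly grouped and all lower, by a gap of 0.06, and the log2 change of -0.23 ± 0.10 (SE, 95% interval -0.45 to -0.01) did not pass (adjusted p = 0.161) under any of the 15 other settings either. Without S2 the log2 change of MDM2 was -0.12 (adjusted p = 0.318). PPM1D, the phosphatase WIP1 that resets the damage response, had a log2 change of 0.22 ± 0.10 (SE, adjusted p = 0.167) with groups that met, and it passed without S2 (0.31, adjusted p = 0.0492). FBXW7, the substrate receptor of a ubiquitin ligase for cyclin E and MYC, had a log2 change of 0.04 (95% interval -0.15 to 0.23). MDM2, PPM1D and CDKN1A had log2 changes of -0.23, 0.22 and 0.32, none past the threshold in the fit reported here. CDKN1A and PPM1D passed under other settings and MDM2 under none.

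Among the 9 genes of cell death and survival 1 rose (11.1%, against 7.75% of all genes) and 2 fell (22.2%, against 8.05%). The median log2 change was -0.01. PHLDA3, which competes with AKT for membrane lipids and so dampens survival signalling, had values of -0.000073, -0.0035 and 0.01 with miR-34c and -0.71, -0.35 and -0.61 with the scramble mimic. The miR-34c arrays of PHLDA3 lay close to each other and 0.34 above the nearest scramble array. The gene rose 1.47-fold (log2 change 0.56 ± 0.10, SE, limma adjusted p = 0.00543).

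ZMAT3, also known as WIG1, encodes a zinc finger protein that binds RNA and regulates splicing and mRNA stability. Its values were -0.24, -0.31 and -0.29 with miR-34c and 0.26, 0.41 and 0.06 with the scramble mimic. ZMAT3 had the largest fall among the 31 targets, to 0.695 of the control level (log2 change -0.53 ± 0.10, SE, limma adjusted p = 0.00659), with the groups 0.30 apart. TP53INP1, a stress protein that acts in cell death and autophagy, had values of -0.61, -0.65 and -0.78 against -0.33, -0.27 and -0.48 and fell to 0.803 of the control level (log2 change -0.32 ± 0.09, SE, adjusted p = 0.0366). The fall of TP53INP1 did not pass without M2 (adjusted p = 0.0923), M3 (0.153), S1 (0.101) or S2 (0.0846).

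The other 6 genes of this group did not pass. PERP, a membrane protein of desmosomes that takes part in p53-dependent death, had miR-34c values of -0.10, -0.07 and -0.08 and scramble values of -0.27, -0.23 and -0.38. All 3 miR-34c arrays were higher, and the log2 change of 0.21 ± 0.08 (SE, adjusted p = 0.0958) passed with the array medians set to 0 (0.0413) and with quantile normalization again (0.048). FAS, the death receptor, had its highest and its lowest value both in the scramble group (-0.17 and -0.73), and its log2 change was 0.17 (95% interval -0.12 to 0.47). The log2 change of FAS was 0.33 without S1, 0.05 without S2 and 0.07 with array weights. TRIAP1, a small protein that favours survival, had a log2 change of -0.14 with groups that did not overlap. TP53I3, a quinone oxidoreductase, AEN, a nuclease of apoptotic cells, and TP53I11 had log2 changes of 0.10, -0.02 and -0.01.

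Of the genes of DNA repair and nucleotide supply 1 of 4 rose, against 7.75% of all genes. XPC, which recognises helix-distorting lesions in nucleotide excision repair, had values of 0.11, 0.12 and 0.08 with miR-34c and -0.17, -0.22 and -0.17 with the scramble mimic. Both groups were tight and 0.25 apart, and the gene rose 1.23-fold (log2 change 0.29 ± 0.07, SE, limma adjusted p = 0.0226). XPC did not pass without M1 (adjusted p = 0.0619), M2 (0.0879), M3 (0.0777) or S1 (0.0558). DDB2, which acts in the same pathway in the damage sensor for ultraviolet lesions, had a log2 change of -0.03 (95% interval -0.21 to 0.15). POLH, the polymerase that copies past such lesions, and RRM2B, the p53-induced subunit of ribonucleotide reductase, had log2 changes of 0.09 (-0.09 to 0.27) and -0.01 (-0.24 to 0.22).

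FUCA1, a lysosomal enzyme that removes fucose from glycoproteins, had the largest change of all 31 targets. Its values were -0.18, -0.24 and -0.37 with miR-34c and -1.24, -0.93 and -0.92 with the scramble mimic, so that even the lowest miR-34c array lay 0.55 above the highest scramble array. FUCA1 rose 1.70-fold (log2 change 0.77 ± 0.10, SE, limma adjusted p = 0.00132). It was the only one of the 5 genes of metabolism, mitochondria and secretion that passed, where 15.8% of all genes did.

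TIGAR, a phosphatase that lowers glycolytic flux, had values of -0.03, -0.18 and -0.09 with miR-34c and 0.45, 0.18 and 0.04 with the scramble mimic. Its log2 change of -0.32 ± 0.11 (SE, adjusted p = 0.0739) was as large as that of CCNG1 but had a larger error, and it passed with array weights (0.0262) and without S3 (-0.41, adjusted p = 0.0415). Without S1 the log2 change of TIGAR was -0.21 (adjusted p = 0.198). SESN1, a stress sensor that restrains mTORC1, had values of -0.29, -0.25 and -0.34 against -0.11, 0.10 and -0.11, with a log2 change of -0.26 ± 0.09 (SE, adjusted p = 0.0759) that passed with quantile normalization again (0.0393). Its relative SESN2, which responds to amino acid and redox stress, had a log2 change of 0.17 ± 0.08 (SE, adjusted p = 0.194) and values from -1.13 to -0.95 with miR-34c against -1.22 to -1.18. The change of SESN1 was lower than that of SESN2 by 0.42 ± 0.11 (SE, 95% interval of SESN1 minus SESN2 -0.72 to -0.12, exact permutation p = 0.1, the smallest this design allows, 0.2 adjusted over the pairs).

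GDF15, a secreted stress cytokine, had values of 0.02, 0.03 and 0.05 with miR-34c and -0.03, -0.02 and -0.15 with the scramble mimic. The groups did not overlap, yet the log2 change was 0.10 (95% interval -0.07 to 0.27) and did not pass (adjusted p = 0.419), and it was 0.06 without S3. SPATA18, a protein of mitochondrial quality control, had a log2 change of -0.01 (-0.19 to 0.17). Across the 19 targets that did not pass, the 95% intervals reached at most 1.46-fold up (CDKN1A) and down to 0.675 of the scramble level (TIGAR), and their log2 changes lay between -0.32 and 0.32. The 3 nearest to the threshold were CCNG2, CDKN1A and TIGAR.

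**Figure D3:**
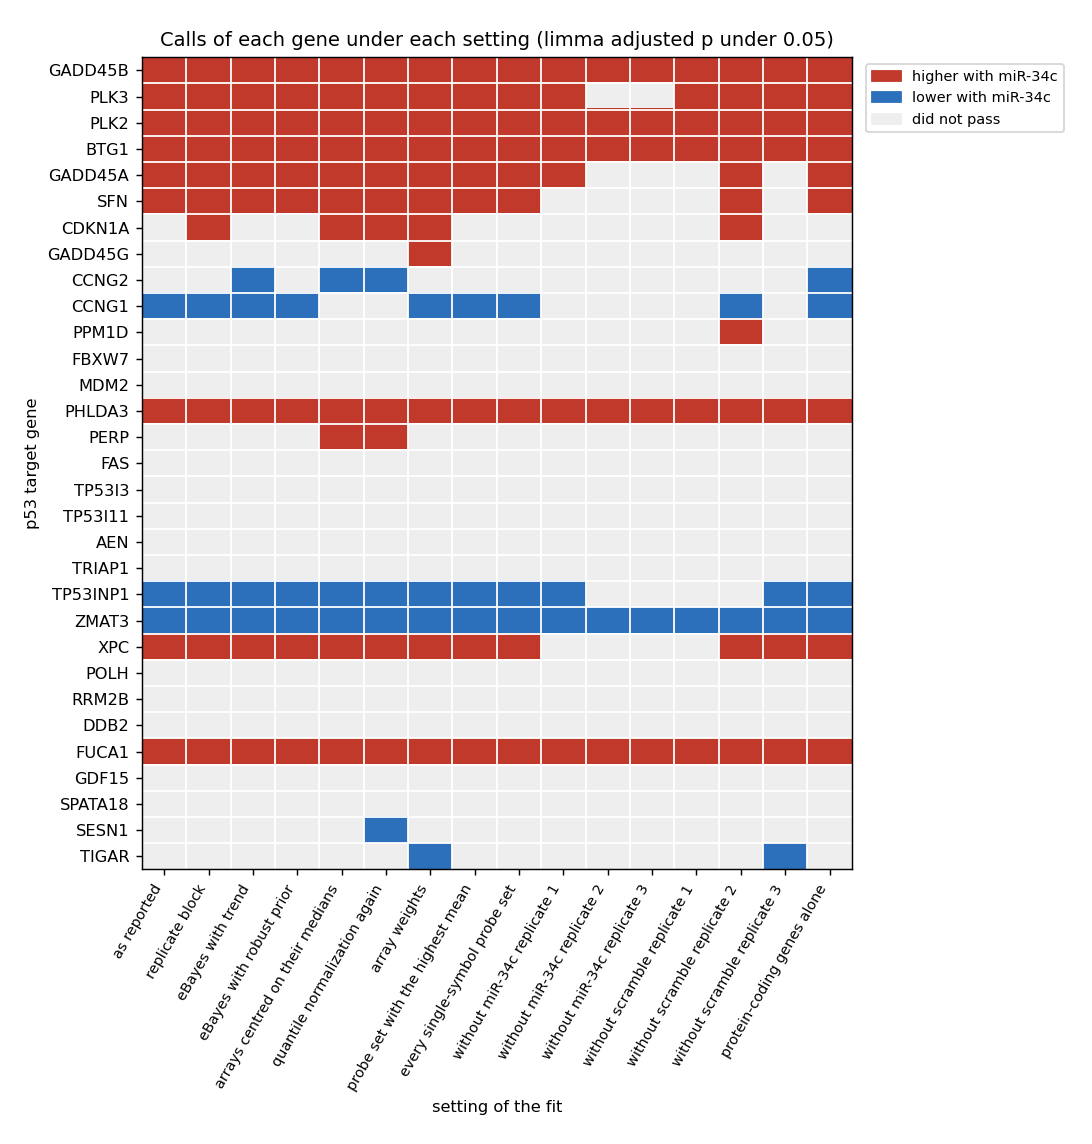
Each square gives the call of a p53 target gene (rows) in one setting of the limma fit (columns), red for higher with miR-34c, blue for lower and grey for an adjusted p of 0.05 or more. GADD45B, PLK2, BTG1, PHLDA3 and FUCA1 are red and ZMAT3 is blue in every column, and 12 genes are grey in every column.

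Of the 12 called targets 6 passed under all 15 other settings, namely GADD45B, PLK2, BTG1, PHLDA3 and FUCA1, which rose, and ZMAT3, which fell. The other 6 lost the call under at least 1 setting, and 7 of the 19 others passed under at least 1. The sign of the log2 change of the 12 called genes was the same in every setting.

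Other genes of the p53 pathway were taken from 3 lists that hold none of the 31 targets. Like the targets, these lists were chosen with earlier results of these data known. Of 39 further p53 targets 10 rose (25.6%, against 7.75% of all genes) and 2 fell (5.13%, against 8.05%). Their median log2 change was 0.09. TRIM22 and TLR3, an antiviral ligase and a sensor of double-stranded RNA that interferon also induces, rose by 2.07 ± 0.19 and 1.61 ± 0.09 (SE) on the log2 scale, DDIT4, an inhibitor of mTORC1 that stress and hypoxia also induce, rose 2.59-fold, and E2F7, a repressor E2F, rose 1.45-fold (limma adjusted p up to 0.00181, that of E2F7). TRIM22, TLR3 and DDIT4 exceeded every change among the 31 targets. The count of rises was 5 without M2, 4 without M3 and 6 without S3, and that of falls was 1 without M2.

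Among 23 members of the p53 family and its regulators 5 fell (21.7%, against 8.05% of all genes) and 1 rose (4.35%, against 7.75%). The median log2 change was -0.17. MDM4, the relative of MDM2 that binds and silences p53, had values of -0.44, -0.33 and -0.51 with miR-34c and -0.05, -0.07 and -0.22 with the scramble mimic and fell to 0.806 of its scramble mean (limma adjusted p = 0.037). HIPK2, a kinase of p53, CHEK1, the checkpoint kinase, and TOPORS, a ubiquitin and SUMO ligase of p53, were at 0.796, 0.749 and 0.784 of their scramble means, all lower (limma adjusted p up to 0.0186, that of TOPORS). The others were UBE4B, which fell (log2 change -0.29, adjusted p = 0.0441), and TP53BP1, which rose (0.24, adjusted p = 0.0496), both named so that the count is complete. The number of regulators that fell was 3 without M1, 0 without M2, 1 without M3, 2 without S1 and 3 without S2, and TP53BP1 did not pass without M1 (adjusted p = 0.126), M2 (0.138), M3 (0.141), S1 (0.118) or S3 (0.095). MDM4 did not pass without M1 (adjusted p = 0.0834), M2 (0.0567), M3 (0.153), S1 (0.113) or S2 (0.08).

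Of 23 genes that p53 is known to lower through p21 and the DREAM repressor complex, 9 fell and none rose in limma. The falls made up 39.1%, against 8.05% of all genes, and the median log2 change was -0.22. An unadjusted limma p under 0.05 was reached by 12 of the 23, and by 5390 of all 18376 genes. Of these 12, BRCA1 (log2 change 0.30, adjusted p = 0.116) was the only one with a higher value. PLK1, FOXM1, MYBL2 and CDC25C, which drive mitosis, fell to 0.536, 0.553, 0.677 and 0.78 of their scramble means (limma adjusted p up to 0.00937, that of CDC25C). The count of falls was 5 without M3 and 6 without M2, and 1 gene rose without M3 and 1 without S2. CHEK1 is on this list too.

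**Figure D4:**
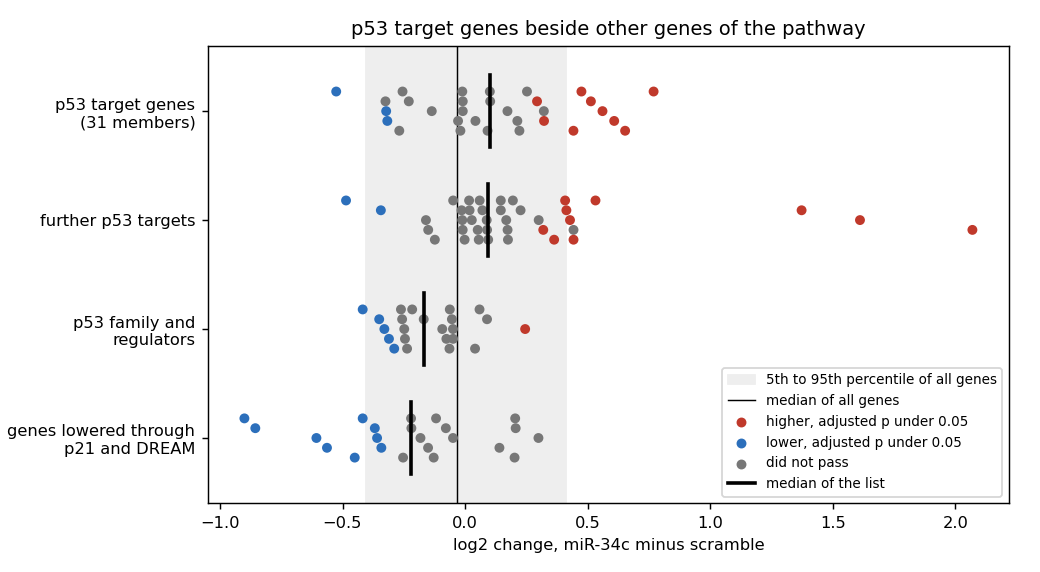
Each point is the log2 change of 1 gene (miR-34c minus scramble), for the 31 p53 targets and 3 other lists of the pathway, coloured by the limma call. Thick bars are list medians (0.10, 0.09, -0.17 and -0.22 from top to bottom), the thin line is the median of all genes (-0.03) and the grey band holds the 5th to 95th percentile of all genes (-0.41 to 0.41).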

How the data were processed

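RNA of 6 samples was hybridised to whole-transcript arrays. The deposited log2 values were made by RMA in Affymetrix Expression Console, per the submitters' processing notes. They lie around 0, so a reference appears to have been subtracted per probe set in a step not given in the sources used here. If that reference was the same for the 6 arrays, it drops out of a log2 change. Of 28868 probe sets 19309 carried 1 symbol in the platform annotation and were used, and 1752 with several and 7807 with none were left out. Probe sets of a gene were averaged (685 genes had more than 1, none of the p53 targets).

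The test was limma 3.58.1 in R 4.3.3, lmFit on the treatment and eBayes without a variance trend, because centred values carry no brightness, with Benjamini-Hochberg adjustment over 18376 genes and a threshold of 0.05. The fit was tested on simulated data first, in which far fewer genes changed than were called here. Of 50 genes changed by each fold it found 6 at 1.25-fold, 32 at 1.5-fold, 44 at 2-fold and 50 at 4-fold. All 31 targets are accounted for, array values are given for called genes and related pairs, and up to 4 called genes of each other list are named. The members and lists were chosen with earlier results of these data known. The labels and the table name no batch.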

Additional observations from a re-analysis of the deposited data

How the results depend on the processing

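The settings were the replicate number as a block, a variance trend, a robust prior, each array centred on its median, quantile normalization again, array weights, the probe set with the highest mean, every probe set on its own, each array left out in turn and, chosen after seeing the data, protein-coding genes alone. Outside the fits that left out an array, the count of rises among the 31 targets stayed between 9 and 11 and that of falls between 3 and 4. The only counts there that moved by over 1.5 times were the rises among p53 regulators, which were 0 with the replicate block, the highest probe set and every probe set. With 1 array left out, all genes called ran from 1641 to 2633, rises of the targets from 5 to 11 and falls from 1 to 3, regulators higher from 0 to 1 and lower from 0 to 5, further targets higher from 4 to 11 and lower from 1 to 2, and genes of the p21 and DREAM list higher from 0 to 1 and lower from 5 to 9. These fits have fewer samples. For the 31 targets, with 1 probe set each, both settings on probe sets change only the other genes of the fit. Correlations of deviations from the group means were 0.0064, 0.11 and -0.10 for same-numbered arrays 1, 2 and 3. Between arrays of different numbers they ran from -0.17 (M1 with S2) to 0.17 (M1 with S3). These values show no pairing by number, but the labels do not say whether same-numbered arrays were handled together. With the replicate block 2701 genes were called, and 10 targets rose and 3 fell, CDKN1A being the one added. The differences between related genes kept their sign with 1 array left out for 4 of the 6 pairs. That of CCNG1 and CCNG2 ran from -0.14 (without S2) to 0.02 (without S3), and that of PLK2 and PLK3 from -0.21 (without S2) to 0.06 (without S3). Centring and quantile normalization moved the median log2 change of all genes from -0.03 to -0.02 and -0.01.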
